A study of Homo sapiens with 16 samples.

Results

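The collagen genes were taken as the protein-coding genes whose symbol is COL, a number, A and a number, which named 44 of the 60649 identifiers in the count table. Their expression was measured by sequencing poly(A) RNA of ASC52telo, an immortalized line of mesenchymal stem cells (MSCs) from adipose tissue carrying telomerase. The 16 libraries came from 4 groups with 4 biological replicates each, and every group was collected at day 10. MmC-/GDF11- cells had neither agent and are called young. MmC-/GDF11+ cells were given recombinant growth differentiation factor 11 (GDF11), a cytokine of the TGF-beta family, at 10 ng/mL. MmC+/GDF11- cells were exposed for 18 h to 1.5 µg/mL mitomycin C (MmC), a DNA alkylating agent used to make MSCs senescent. MmC+/GDF11+ cells had both. All groups were the same line, labelled wt, so the data describe 1 immortalized line in culture. The questions were how the collagen classes differed after MmC and whether GDF11 changed them in young or in senescent MSCs.

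Collagens are extracellular matrix proteins built of α chains wound into a helix, and each type combines its own chains. Fibrillar collagens, among them type I (COL1A1 and COL1A2) and type III (COL3A1), form the fibers of connective tissue, which fibroblasts and MSCs secrete in quantity. Type IV forms the network of basement membranes, type VI forms beaded microfibrils around cells, and the fibril-associated collagens with interrupted helices (FACIT) sit on the surface of fibrils. Types VIII and X form short-chain networks, types XV and XVIII are the multiplexins of basement membrane zones, types XIII, XVII, XXIII and XXV span the cell membrane, and type VII makes anchoring fibrils.

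Promoter sequence was read for members whose promoters help to read the results below: the type IV genes, which lie head to head in pairs and share the stretch between their starts, and COL7A1, COL16A1 and COL5A3, whose levels after MmC did not overlap those before it. RefSeq promoter windows on GRCh38.p14 were matched for 32 of the 44 genes. Each line gives the bases directly before the RefSeq start, 5′ to 3′ on the strand of the gene, with capitals on the motifs searched on both strands. The GC box was searched as GGGCGG, the box that binds factor NF-Y as its core CCAAT, and the TATA box of core promoters as TATAAA. The element bound by SMAD proteins, which carry signals of the TGF-beta family, was searched as CAGACA, and the site of the factor AP-1 as TGACTCA. No motif overlapped another in the printed stretches.
COL4A2, all 126 bases between the starts of COL4A1 and COL4A2 (chr13:110307158-110307283, plus strand): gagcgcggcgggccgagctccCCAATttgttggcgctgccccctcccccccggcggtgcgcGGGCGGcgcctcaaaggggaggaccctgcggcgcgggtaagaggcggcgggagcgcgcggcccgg
COL4A3, 250 bases (chr2:227164374-227164623, plus strand): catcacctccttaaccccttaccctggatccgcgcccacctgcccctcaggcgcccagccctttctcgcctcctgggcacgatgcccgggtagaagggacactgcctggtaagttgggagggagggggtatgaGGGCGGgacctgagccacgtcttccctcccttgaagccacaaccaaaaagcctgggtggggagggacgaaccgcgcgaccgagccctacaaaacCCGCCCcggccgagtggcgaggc
COL4A5, 250 bases (chrX:108439588-108439837, plus strand): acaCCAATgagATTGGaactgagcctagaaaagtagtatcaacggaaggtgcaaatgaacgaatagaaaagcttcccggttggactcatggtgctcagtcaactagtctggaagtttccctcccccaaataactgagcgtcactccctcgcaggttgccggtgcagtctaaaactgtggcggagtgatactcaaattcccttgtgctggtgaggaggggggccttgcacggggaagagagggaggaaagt
COL5A3, 250 bases (chr19:10010505-10010754, minus strand): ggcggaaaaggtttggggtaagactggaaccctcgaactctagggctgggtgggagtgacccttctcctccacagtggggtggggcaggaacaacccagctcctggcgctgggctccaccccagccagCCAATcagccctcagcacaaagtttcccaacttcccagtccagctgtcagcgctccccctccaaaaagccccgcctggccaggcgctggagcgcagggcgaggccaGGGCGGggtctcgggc
COL16A1, 250 bases (chr1:31704018-31704267, minus strand): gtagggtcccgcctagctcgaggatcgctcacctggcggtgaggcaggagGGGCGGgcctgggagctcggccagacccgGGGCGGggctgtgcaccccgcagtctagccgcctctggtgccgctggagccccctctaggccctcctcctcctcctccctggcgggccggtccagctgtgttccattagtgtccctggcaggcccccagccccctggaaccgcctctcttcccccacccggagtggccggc
COL7A1, 250 bases (chr3:48595330-48595579, minus strand): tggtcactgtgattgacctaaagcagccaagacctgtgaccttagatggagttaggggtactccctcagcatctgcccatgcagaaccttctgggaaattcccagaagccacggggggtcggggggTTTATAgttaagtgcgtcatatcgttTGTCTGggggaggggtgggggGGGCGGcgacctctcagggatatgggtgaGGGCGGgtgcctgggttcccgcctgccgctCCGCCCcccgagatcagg
The stretch between COL4A1 and COL4A2 was 80.2% G and C and held 1 GC box and 1 CCAAT box, and the starts of COL4A4 and COL4A3 and of COL4A6 and COL4A5 lay 418 and 379 bases apart in RefSeq. The COL7A1 stretch was the only one of the 6 with a SMAD element and a TATA box, beside 3 GC boxes. COL4A3 and COL16A1 held 2 GC boxes each, COL5A3 held 1 GC box and 1 CCAAT box, and COL4A5 held 2 CCAAT boxes and no GC box. Shares over all windows were counted on the 250 bases before the start. A GC box stood in 42.6% of the 35116 windows and in 54.5% of the 44 windows of collagen genes. The shares were 32.0% and 27.3% for CCAAT, 10.7% and 18.2% for TATAAA, 13.6% and 6.82% for CAGACA, and 4.20% and 0% for TGACTCA. A match describes the letters of a window and does not mark a bound site.

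Total counts per library lay between 71275337 and 144204979. The labelled cell type was checked by its surface markers: NT5E, THY1, ENG and CD44 were all counted in every library and summed to 2982 to 3710 CPM, a gene's count relative to the library size after TMM scaling. Endothelial markers (3 of 3 counted in every library) summed to 7.82 to 11.2 CPM in the MmC- libraries and 8.34 to 21.7 CPM in the MmC+ libraries, haematopoietic markers (2 of 4) to 1.63 to 2.69 and 2.60 to 5.53 CPM, adipocyte markers (2 of 3) to 1.16 to 2.49 and 0.466 to 1.31 CPM, and epithelial markers (2 of 3) to 0.791 to 1.29 and 0.533 to 1.11 CPM. No marker was at 0 in all libraries. The endothelial and haematopoietic sums reached higher values after MmC, and the adipocyte sums lower ones. Endothelial markers did not move together: from MmC-/GDF11- to MmC+/GDF11- mean PECAM1 went from 5.96 to 14.4 CPM and VWF from 0.938 to 1.48 CPM, but CDH5 from 2.42 to 0.850 CPM. Of the adipocyte markers FABP4 went from 1.56 to 0.811 CPM and PLIN1 from 0.0792 to 0.170 CPM. The part of these markers in the results was not tested.

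Replicate 1 had more collagen RNA than replicates 2 to 4 in every group. The share of protein-coding counts that fell on collagen genes was, in the order of replicates 1 to 4, 4.39, 2.50, 2.74 and 2.76% in MmC-/GDF11-, 3.28, 3.02, 2.64 and 2.64% in MmC-/GDF11+, 2.88, 1.60, 1.49 and 1.65% in MmC+/GDF11- and 2.89, 1.34, 1.52 and 1.76% in MmC+/GDF11+. Its share was thus the highest of each group, by a wide gap in all but MmC-/GDF11+. Replicate 1 was the highest library of its group for 30, 20, 18 and 20 of the 35 collagen genes tested, in the same group order, and for 9, 6, 8 and 8 of the 9 fibrillar genes. All libraries carry the same run label, so the labels name no batch that splits them. The study lists batch effects from technical problems among its limitations, without naming the libraries concerned. The mean share was 3.10% ± 0.869 (SD, n = 4) in MmC-/GDF11- and 1.90% ± 0.651 in MmC+/GDF11-, and these ranges overlapped only through replicate 1 of MmC+/GDF11-. The cause of the offset was not tested, and results that rest on it are given with and without replicate 1.

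Exposure to MmC without GDF11 moved collagen genes in both directions. Of the 35 genes that passed the filter on low counts, 9 were higher and 10 were lower in MmC+/GDF11- than in MmC-/GDF11- at an adjusted p under 0.05 (edgeR's quasi-likelihood test with Benjamini-Hochberg adjustment over 19103 genes), and 16 were not called. Across all 19103 genes tested 45.3% were called, 22.9% higher and 22.4% lower, so the 19 of 35 collagen genes called (54.3%) were near that background. With GDF11 present in both arms, 8 were higher and 8 were lower, against a background of 46.7% called, 23.4% higher and 23.3% lower. At an unadjusted p under 0.05 there were 24 and 18 collagen genes, against 52.7% and 53.9% of all genes. The libraries of the groups did not overlap for 12 and 16 of the 35 genes, against 37.3% and 41.5% of all genes. The 2 comparisons share no libraries: 8 genes were higher in both, 8 were lower in both, and COL1A1, COL14A1 (lower) and COL4A5 (higher) were called without GDF11 only. The median log2 fold change of the collagen genes was -0.23 and -0.18, beside -0.01 and -0.01 over all genes tested. Without replicate 1 of every group 12 genes were higher and 15 lower without GDF11, beside 26.2% and 25.6% of all genes in that fit, and 9 higher and 15 lower with it, beside 26.4% and 26.2%. The libraries of MmC+/GDF11- and MmC-/GDF11- were taken as paired by replicate number, which the labels do not state. With the replicate number as a block 12 were higher and 16 lower there, beside 28.8% and 29.1% of all genes. In such bulk samples fewer cells of a type and less RNA per cell cannot be told apart, and the p-values measure the spread between these cultures of 1 line.

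**Figure D1:**
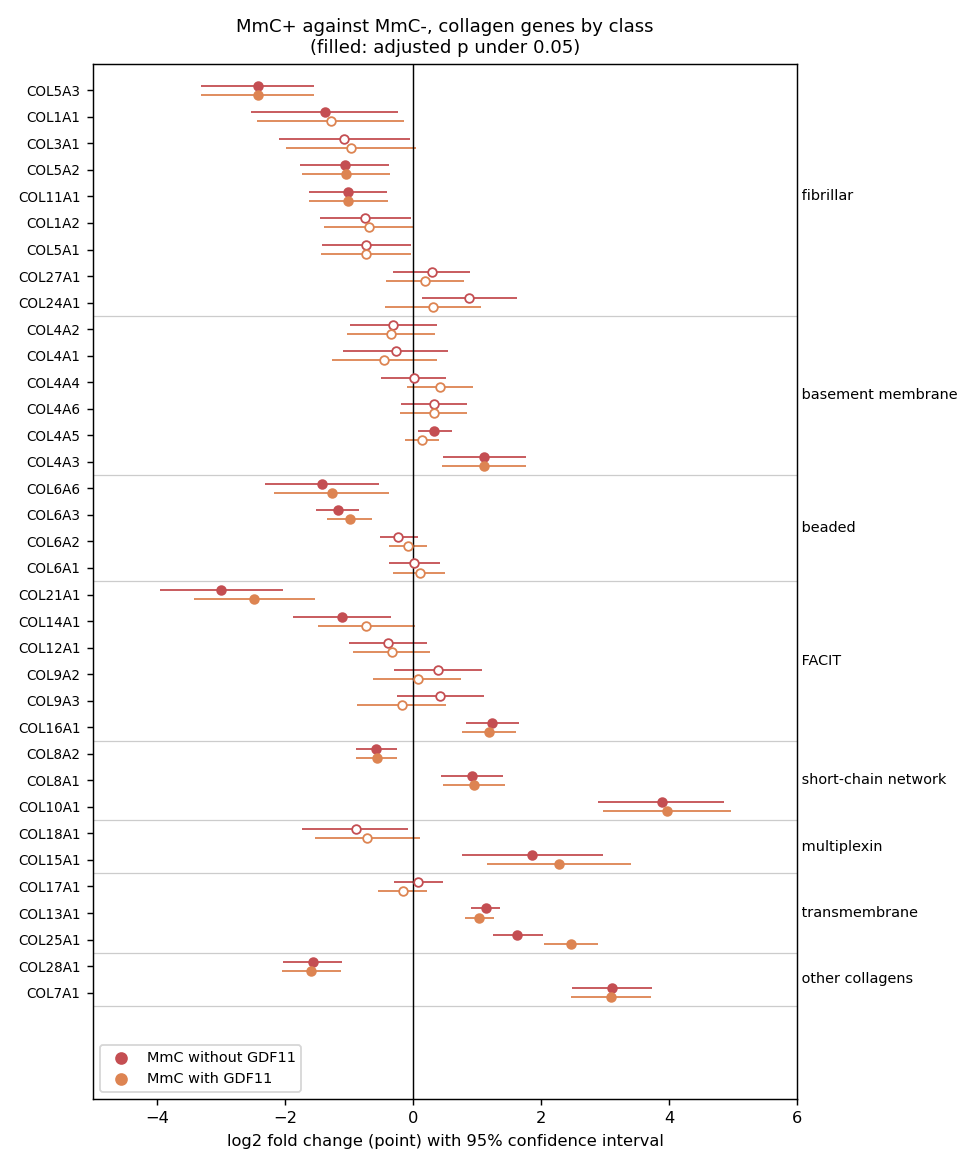
Log2 fold change of each of the 35 collagen genes tested after MmC, by class (rows), without GDF11 (red) and with GDF11 (orange), with 95% confidence intervals. Filled points passed an adjusted p of 0.05. Of the 9 fibrillar genes 7 lie left of 0 in both comparisons, and COL10A1 (3.88 and 3.96) and COL7A1 (3.10 and 3.09) lie farthest right.

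Among the fibrillar collagens 4 of 9 tested genes fell after MmC without GDF11 (COL1A1, COL5A2, COL5A3 and COL11A1) and none rose, with a class median log2 fold change of -1.02. With GDF11 present 3 fell (COL5A2, COL5A3 and COL11A1), and none rose. These shares called, 44.4% and 33.3%, stood beside 45.3% and 46.7% of all genes. Without replicate 1 of every group 7 of 9 were lower in both comparisons, beside 25.6% and 26.2% of all genes in that fit. The additional genes were COL1A2, COL3A1 and COL5A1 without GDF11 and these with COL1A1 in the presence of GDF11, while COL24A1 was higher without GDF11. The replicate block gave the same 7 lower and 1 higher without GDF11, beside 29.1% and 28.8% of all genes. Only the fall of COL5A3 held whichever replicate number was left out of every group: the calls of COL5A2 and COL11A1 were lost without replicate 3 and without replicate 4 in both comparisons, and that of COL1A1 without replicate 2, 3 or 4.

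COL1A1, which encodes the α1 chain of type I collagen, had levels of 11527, 5499.9, 5288 and 4891 CPM in the libraries of MmC-/GDF11-, in the order of replicates 1 to 4 as in all values below, and 8435, 7224, 5371 and 4773 CPM in MmC-/GDF11+. After MmC its levels were 5767, 1688, 1451 and 1531 CPM without GDF11 and 6032, 1318, 1505 and 1673 CPM with it. Replicates 2 to 4 of both MmC+ groups lay under all MmC- libraries, and only replicate 1 reached into their range. The log2 fold change was -1.38 (SE 0.541, adjusted p = 0.0485) without GDF11 and -1.29 (SE 0.540, adjusted p = 0.0612) with it. Within same-numbered libraries the MmC+/GDF11- level was 0.500 of the young level in replicate 1 and 0.274 to 0.313 of it in the others. The call without GDF11 lay close to the threshold and was lost in 16 of the 22 alternatives tried. It was lost without MmC-/GDF11- replicate 1, at -0.99 (adjusted p = 0.158), without MmC-/GDF11- replicate 2, 3 or 4 (-1.46 to -1.50, adjusted p 0.0523 to 0.063) and without MmC+/GDF11- replicate 2, 3 or 4 (-1.18 to -1.21, adjusted p 0.12 to 0.127). It was also lost without replicate 2, 3 or 4 of every group (-1.28 to -1.31, adjusted p 0.145 to 0.16), with RLE or upper-quartile scaling, with no filter on low counts, with only the libraries compared and with DESeq2 (-1.36 to -1.38, adjusted p 0.0517 to 0.136), and under glmTreat, which tests against a log2 fold change of 1. Without replicate 1 of every group the log2 fold changes were -1.75 (adjusted p = 4.66e-07) and -1.95 (adjusted p = 1.83e-07), and without MmC+/GDF11+ replicate 1 alone the second was -2.10 (adjusted p = 0.00293).

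The partner chain COL1A2 stood at 9307, 5461, 5576 and 5536 CPM in MmC-/GDF11- and 6661, 6773, 5566 and 5342 CPM in MmC-/GDF11+. In the MmC+ groups it stood at 6701, 3059.7, 2733 and 2919 CPM without GDF11 and 6736, 2351, 2811 and 3159 CPM with it. COL3A1, the chain of type III collagen, had 6817, 3916, 4167 and 3982 CPM in MmC-/GDF11- and 4831, 1307, 1233 and 1575 CPM in MmC+/GDF11-. Its levels with GDF11 were 4681, 4733, 3977 and 3797 CPM before and 4776, 1079, 1303 and 1635 CPM after MmC. For both genes replicate 1 of each MmC+ group lay among the MmC- libraries, and the other MmC+ libraries lay below all of them. Neither was called: the log2 fold changes of COL1A2 were -0.75 (SE 0.335, adjusted p = 0.0801) and -0.69 (SE 0.335, adjusted p = 0.101), and those of COL3A1 were -1.08 (SE 0.481, adjusted p = 0.0798) and -0.97 (SE 0.480, adjusted p = 0.111). With the replicate block, COL1A2 (adjusted p = 0.00114) and COL3A1 (adjusted p = 0.00203) were lower without GDF11. Without MmC+/GDF11- replicate 1 alone the log2 fold changes were -1.15 (adjusted p = 0.00608) for COL1A2 and -1.77 (adjusted p = 0.00364) for COL3A1. Without MmC+/GDF11+ replicate 1 alone they were -1.13 (adjusted p = 0.00487) and -1.67 (adjusted p = 0.00461). Both fits kept replicate 1 of the MmC- groups. Without replicate 1 of every group COL1A2 had -0.93 and -1.08, and COL3A1 had -1.55 and -1.64, without and with GDF11. Over all leave-outs without GDF11 COL1A2 ranged from -1.15 to -0.51 and COL3A1 from -1.77 to -0.83.

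Type V collagen, which nucleates type I fibrils and sets their diameter, was measured through all 3 of its chains. COL5A3 had 179, 99.97, 94.3 and 98.8 CPM in MmC-/GDF11- and 36.6, 14.1, 13.5 and 23.2 CPM in MmC+/GDF11-. With GDF11 it had 167, 118, 99.7 and 77.4 CPM before and 38.9, 12.5, 12.8 and 21.8 CPM after MmC. The MmC+ libraries lay under every MmC- library, replicate 1 included, and the log2 fold change was -2.43 (SE 0.413, adjusted p = 0.000255) and -2.43 (SE 0.413, adjusted p = 0.000254), a fall that held under all 22 alternatives tried in each comparison. COL5A2 had 671, 376, 477 and 519 CPM in MmC-/GDF11- and 407, 174, 163 and 227 CPM in MmC+/GDF11-, where replicate 1 overlapped, whereas the levels with GDF11, 541, 462, 449 and 513 CPM before and 401, 131, 182 and 235 CPM after MmC, did not overlap. It fell, with a log2 fold change of -1.07 (SE 0.324, adjusted p = 0.0139) and -1.05 (SE 0.324, adjusted p = 0.0153), and the second call was lost without MmC+/GDF11+ replicate 3, at -0.93 (adjusted p = 0.0514). Both calls of COL5A2 were lost without replicate 3 of every group, at -0.95 (adjusted p = 0.0905) and -0.96 (adjusted p = 0.0856), without replicate 4 of every group and with no filter on low counts, and the second also without replicate 2 of every group, at -0.88 (adjusted p = 0.0651). COL5A1 had 1176, 623, 629 and 588 CPM in MmC-/GDF11- and 761, 387, 340.0 and 329 CPM in MmC+/GDF11-, and with GDF11 913, 771, 649 and 581 CPM before and 737, 306, 343 and 358 CPM after MmC. Replicate 1 of each MmC+ group lay among the MmC- libraries. Its log2 fold changes of -0.73 (SE 0.330, adjusted p = 0.0838) and -0.74 (SE 0.331, adjusted p = 0.0787) were not called, and became -1.09 (adjusted p = 0.0106) without MmC+/GDF11- replicate 1 and -1.11 (adjusted p = 0.00851) without MmC+/GDF11+ replicate 1. Those single leave-outs kept replicate 1 of the MmC- groups. Without replicate 1 of every group the values of COL5A1 were -0.80 without GDF11 and -0.99 with it. Over all leave-outs without GDF11 COL5A1 ranged from -1.09 to -0.42. With the replicate block COL5A1 was lower without GDF11 (adjusted p = 9.76e-05).

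COL11A1, a minor fibrillar chain best known from cartilage, stood at 38.6, 16.3, 20.1 and 26.1 CPM in MmC-/GDF11- and 18.7, 10.9, 10.8 and 9.42 CPM in MmC+/GDF11-. With GDF11 it stood at 28.9, 18.998, 21.5 and 25.4 CPM before and 17.8, 8.59, 10.3 and 10.5 CPM after MmC, and the libraries overlapped without GDF11 only, again through replicate 1. It fell in both comparisons, with a log2 fold change of -1.02 (SE 0.287, adjusted p = 0.00911) and -1.01 (SE 0.287, adjusted p = 0.00966). Both calls were lost without replicate 3 of every group, at -1.04 (adjusted p = 0.0511) and -0.97 (adjusted p = 0.0657), and without replicate 4, at -0.88 (adjusted p = 0.0861) and -0.90 (adjusted p = 0.0782). The low members COL24A1 (0.0931 to 0.169 CPM in MmC-/GDF11- and 0.198 to 0.301 CPM in MmC+/GDF11-) and COL27A1 (4.25 to 8.82 and 5.21 to 11.3 CPM) were the fibrillar genes with positive values, at 0.88 (SE 0.350, adjusted p = 0.0501) and 0.29 (SE 0.287, adjusted p = 0.442), and neither was called. COL24A1 narrowly missed the threshold, although its libraries did not overlap without GDF11: it passed without MmC-/GDF11- replicate 1, at 1.00 (adjusted p = 0.0471), without MmC+/GDF11- replicate 2, at 0.99 (adjusted p = 0.0478), and with the replicate block (adjusted p = 0.0289).

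**Figure D2:**
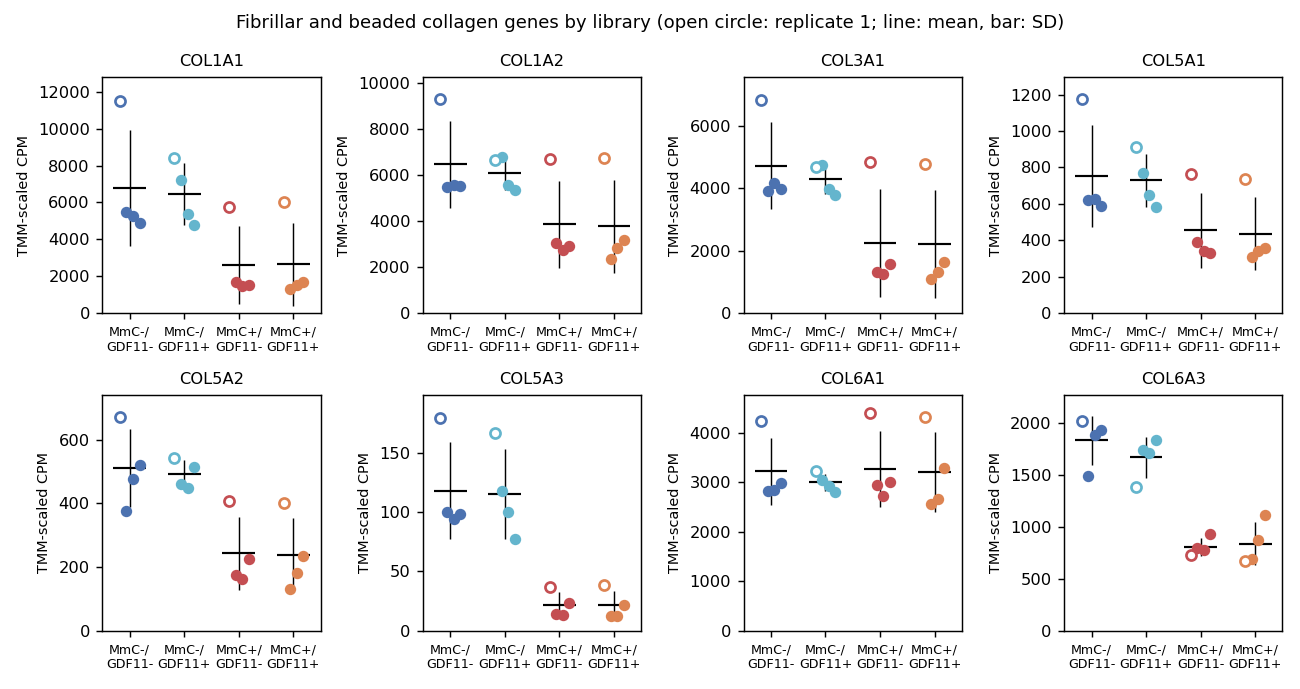
TMM-scaled CPM (linear axes) of 6 fibrillar and 2 beaded collagen genes in the 16 libraries by group. Open circles are replicate 1, filled circles replicates 2 to 4, lines the mean and bars the SD of 4 libraries. Replicate 1 is the highest point of both MmC+ groups for every gene shown but COL6A3, for which all MmC+ libraries (732 to 935 and 669 to 1121 CPM) lie under all MmC- libraries.

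The beaded collagen of type VI fell in 1 of its main chains. COL6A1 and COL6A2 were not called, whereas COL6A3 fell with log2 fold changes of -1.18 without and -0.99 with GDF11. Of the 4 beaded genes tested, COL6A3 and COL6A6 were lower in both comparisons and none was higher. The share called was 50.0% in each, beside 45.3% and 46.7% of all genes. These calls held without replicate 1 of every group, where 25.6% and 26.2% of all genes were lower. The fall of COL6A6 was lost without replicate 2, 3 or 4 of every group in both comparisons, whereas that of COL6A3 was lost only under glmTreat among the 22 alternatives.

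COL6A3, which encodes the long α3 chain, had 2028, 1494, 1886 and 1941 CPM in MmC-/GDF11- and 732, 796, 779 and 935 CPM in MmC+/GDF11-. With GDF11 its levels were 1384, 1747, 1716 and 1841 CPM before and 669, 694, 874 and 1121 CPM after MmC. No MmC+ library reached the lowest MmC- library, and the log2 fold change was -1.18 (SE 0.162, adjusted p = 3.15e-05) and -0.99 (SE 0.161, adjusted p = 0.000136). COL6A1 had 4237, 2822, 2843 and 2989 CPM before and 4396, 2947, 2723 and 3016 CPM after MmC without GDF11, and 3219, 3054, 2927 and 2810.0 CPM before and 4314, 2559.7, 2662 and 3298 CPM after it with GDF11. COL6A2 had 4436, 3512, 3247 and 3377 CPM before and 3732, 3113, 2772 and 2827 CPM after MmC without GDF11, and 3243, 3288, 3364 and 3196 CPM before and 3742, 2721, 2740.5 and 3184 CPM after it with GDF11. Their groups overlapped, and the log2 fold changes without GDF11 had 95% confidence intervals of -0.38 to 0.42 for COL6A1 and -0.52 to 0.07 for COL6A2. COL6A6 was scarce, at 2.88, 1.27, 1.87 and 1.30 CPM in MmC-/GDF11- and 1.28, 0.349, 0.513 and 0.564 CPM in MmC+/GDF11-, and fell, with log2 fold changes of -1.43 (SE 0.422, adjusted p = 0.0117) and -1.27 (SE 0.422, adjusted p = 0.0216). The second call was lost without MmC-/GDF11+ replicate 1 or MmC+/GDF11+ replicate 2, 3 or 4 (-1.02 to -1.24, adjusted p 0.0515 to 0.07). Without replicate 2, 3 or 4 of every group COL6A6 was not called in either comparison (-1.30 to -1.47, adjusted p 0.0563 to 0.0665 without GDF11 and -1.12 to -1.31, adjusted p 0.061 to 0.111 with it).

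Ratios between chains were computed within each library from counts per base of the canonical transcript, so that library scaling does not enter. COL6A1 exceeded COL6A3 per base by 5.23, 4.73, 3.78 and 3.86 times in MmC-/GDF11- and by 15.04, 9.28, 8.76 and 8.09 times in MmC+/GDF11-. With GDF11 the ratios were 5.83, 4.38, 4.27 and 3.82 before and 16.2, 9.25, 7.64 and 7.37 after MmC. All MmC+ libraries had a higher ratio than all MmC- libraries, and the geometric mean after MmC was 2.29-fold (exact permutation p = 0.0286, adjusted p = 0.114) that before it without GDF11 and 2.12-fold (exact permutation p = 0.0286, adjusted p = 0.114) with it. For COL6A2 to COL6A3 the ratio after MmC was 1.93-fold (exact permutation p = 0.0286, adjusted p = 0.114) and 1.90-fold (exact permutation p = 0.0286, adjusted p = 0.114) that before it. COL1A1 stood to COL1A2 as 1.06, 0.864, 0.813 and 0.758 to 1 in MmC-/GDF11- and as 0.738, 0.473, 0.455 and 0.450 to 1 in MmC+/GDF11-, 0.596-fold (exact permutation p = 0.0286, adjusted p = 0.114) the ratio before MmC, and with GDF11 it was 0.591-fold (exact permutation p = 0.0571, adjusted p = 0.178) with overlapping libraries. COL5A1 relative to COL1A1 was 1.74-fold (exact permutation p = 0.0286, adjusted p = 0.114) and 1.69-fold (exact permutation p = 0.0286, adjusted p = 0.114) the level before MmC, with no overlap. Its ratios were 0.0715, 0.0793, 0.0833 and 0.0842 in MmC-/GDF11- and 0.0925, 0.161, 0.164 and 0.151 in MmC+/GDF11-. With GDF11 they were 0.0758, 0.0747, 0.0846 and 0.0852 before and 0.0856, 0.163, 0.159 and 0.150 after MmC. There replicate 1 was barely apart from the MmC- libraries. COL4A1 and COL4A2, whose starts flank the 126 bases shown above, had ratios of 0.605, 0.532, 0.574 and 0.619 in MmC-/GDF11- and 0.671, 0.549, 0.551 and 0.588 in MmC+/GDF11-, 1.01-fold (exact permutation p = 0.857, adjusted p = 0.971). With 4 libraries against 4 the test has 70 assignments and its smallest p is 0.0286, and none of the 28 ratio tests passed after Benjamini-Hochberg adjustment. Even a ratio without overlap could pass only if most of the tests lay at that smallest p, so the adjusted values cannot decide on such ratios.

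**Figure D3:**
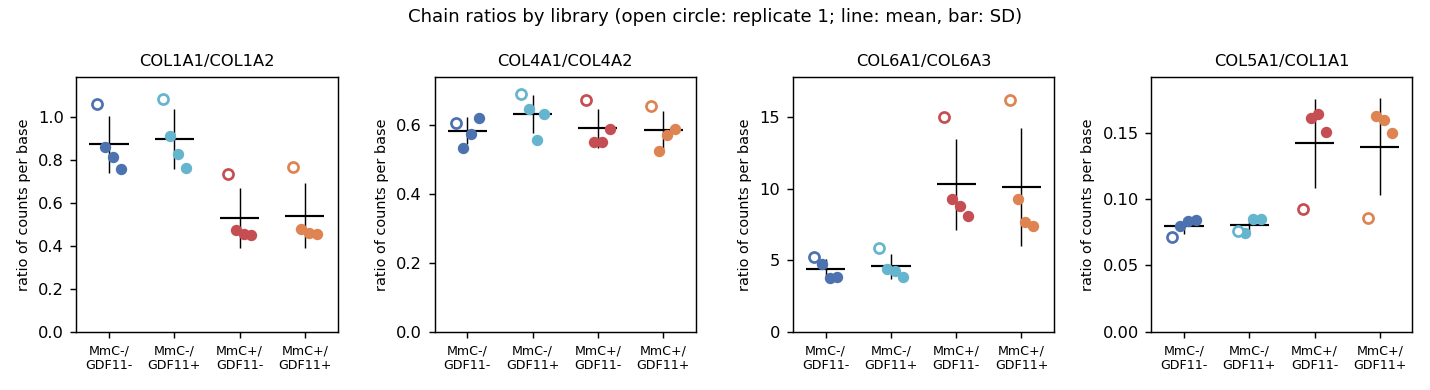
Ratio of counts per base between 2 chains (linear axes) in the 16 libraries by group, with replicate 1 as open circles, the mean as a line and the SD of 4 libraries as a bar. COL6A1/COL6A3 and COL5A1/COL1A1 are higher in every MmC+ library than in every MmC- library, COL1A1/COL1A2 is lower in the MmC+ libraries but for an overlap in the groups with GDF11, and COL4A1/COL4A2 stays between 0.522 and 0.688 in all libraries.

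Basement membrane collagen was called in 2 of 6 genes without GDF11 (COL4A3 and COL4A5, higher) and in 1 of 6 with it (COL4A3). These shares, 33.3% and 16.7%, stood beside 45.3% and 46.7% of all genes. The calls of COL4A3 were lost without replicate 2 or 3 of every group without GDF11 (0.98 to 1.01, adjusted p 0.0745 to 0.0802) and without replicate 3 or 4 with it (0.82 to 1.02, adjusted p 0.0795 to 0.0806). Without replicate 1 of every group COL4A3, COL4A4, COL4A5 and COL4A6 were higher and COL4A1 and COL4A2 lower without GDF11, and COL4A3 and COL4A4 higher and COL4A1 and COL4A2 lower with it. In that fit 26.2% of all genes were higher and 25.6% lower without GDF11, and 26.4% and 26.2% with it. The chains α1 and α2 are found in basement membranes throughout the body, whereas α3 to α6 are known from kidney and other specialised membranes.

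COL4A1 had 338, 153, 185 and 237 CPM in MmC-/GDF11- and 326, 166, 145 and 119 CPM in MmC+/GDF11-, and COL4A2 had 550.0, 283, 318 and 378 CPM before and 479.6, 299, 259 and 199.9 CPM after MmC. With GDF11 the levels were 402, 208, 170.1 and 209.6 CPM before and 325, 134, 146 and 122 CPM after MmC for COL4A1, and 576, 317, 302 and 327 CPM before and 489, 252, 252 and 205 CPM after MmC for COL4A2. The groups overlapped, replicate 1 was the highest library of each group for both genes, and the log2 fold changes of -0.27 (SE 0.387, adjusted p = 0.598) and -0.31 (SE 0.322, adjusted p = 0.465) were not called. Without replicate 1 of every group they were -0.42 (adjusted p = 0.0365) and -0.37 (adjusted p = 0.0443), and the replicate block also called COL4A2 (adjusted p = 0.027).

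COL4A3 stood at 1.01, 0.559, 0.773 and 0.819 CPM in MmC-/GDF11- and 0.830, 1.71, 2.08 and 2.23 CPM in MmC+/GDF11-, and with GDF11 at 0.903, 0.845, 0.613 and 0.759 CPM before and 1.07, 1.30, 1.73 and 2.62 CPM after MmC. It rose by a log2 fold change of 1.11 (SE 0.311, adjusted p = 0.00815) and 1.11 (SE 0.312, adjusted p = 0.0083), and only replicate 1 of MmC+/GDF11- lay within the MmC- range. Its head-to-head partner COL4A4 had 6.74, 2.61, 2.99 and 3.04 CPM in MmC-/GDF11- and 3.94, 3.97, 3.86 and 3.72 CPM in MmC+/GDF11-, with a log2 fold change of 0.01 (SE 0.241, adjusted p = 0.97) that became 0.44 (adjusted p = 0.0304) without MmC-/GDF11- replicate 1. COL4A5 had 22.4, 15.7, 21.03 and 19.8 CPM in MmC-/GDF11- and 29.7, 23.6, 23.8 and 22.4 CPM in MmC+/GDF11-, and with GDF11 18.8, 21.97, 20.1 and 21.9 CPM before and 26.8, 19.996, 22.9 and 21.4 CPM after MmC, so that its groups overlapped. It rose by a log2 fold change of 0.33 (SE 0.124, adjusted p = 0.0382) without GDF11 and stood at 0.14 (SE 0.124, adjusted p = 0.387) with it, and the first call was lost without MmC-/GDF11- replicate 2 or 4 or MmC+/GDF11- replicate 1 or 3 (0.25 to 0.35, adjusted p 0.0544 to 0.117), and without replicate 2, 3 or 4 of every group (0.26 to 0.40, adjusted p 0.068 to 0.135). COL4A6, the partner of COL4A5, lay between 1.92 and 5.87 CPM in all libraries and was not called, but was higher without GDF11 when replicate 1 of every group was left out (adjusted p = 0.0489) and with the replicate block (adjusted p = 0.0179). Of the exonic bases of COL4A3, 6.82% overlap MFF-DT on the opposite strand, and the strand setting of the counting is not given in the sources used here.

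Of 6 FACIT genes tested, COL21A1 and COL14A1 fell and COL16A1 rose without GDF11, and COL21A1 fell and COL16A1 rose with it. These shares called, 50.0% and 33.3%, stood beside 45.3% and 46.7% of all genes. COL16A1, which encodes a collagen linked to fibrils and to cell adhesion, stood at 297, 175, 172 and 200.4 CPM in MmC-/GDF11- and 521, 612, 504 and 347 CPM in MmC+/GDF11-, and with GDF11 at 227, 201, 174 and 195 CPM before and 525, 423, 518 and 349 CPM after MmC. Every MmC+ library lay over every MmC- library, and the log2 fold change was 1.23 (SE 0.196, adjusted p = 0.000115) and 1.19 (SE 0.196, adjusted p = 0.000155).

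COL21A1 had 17.7, 6.13, 8.50 and 7.66 CPM in MmC-/GDF11- and 0.992, 0.862, 0.826 and 2.31 CPM in MmC+/GDF11-. With GDF11 its levels were 7.18, 6.95, 8.66 and 7.78 CPM before and 0.889, 0.925, 0.900 and 2.75 CPM after MmC. Replicate 4 was the highest library of both MmC+ groups but stayed under every MmC- library, and the log2 fold change of -3.00 (SE 0.452, adjusted p = 9.41e-05) and -2.49 (SE 0.443, adjusted p = 0.000369) was the lowest of the collagen genes in both comparisons. COL14A1, which encodes a chain that binds fibrils and regulates their growth, had 78.5, 25.8, 35.3 and 29.3 CPM in MmC-/GDF11- and 17.9, 12.8, 17.97 and 29.4 CPM in MmC+/GDF11-. Only replicate 4 of MmC+/GDF11- lay within the range of MmC-/GDF11-. It fell, with a log2 fold change of -1.11 (SE 0.357, adjusted p = 0.0194), without GDF11, and its value with GDF11 was -0.73 (SE 0.355, adjusted p = 0.104). The fall was lost without MmC-/GDF11- replicate 1, at -0.61 (adjusted p = 0.105), or MmC+/GDF11- replicate 2, at -0.95 (adjusted p = 0.0618), and without replicate 1, at -0.59 (adjusted p = 0.148), or 3 of every group, at -1.14 (adjusted p = 0.089), and the second comparison passed without MmC+/GDF11+ replicate 4, at -1.06 (adjusted p = 0.0297). COL12A1, which encodes a fibril-associated chain of tendon and ligament, stood at 1010.2, 389.5, 635 and 580.3 CPM in MmC-/GDF11- and 715, 329, 409 and 533 CPM in MmC+/GDF11-, with overlapping groups and a log2 fold change of -0.40 (SE 0.286, adjusted p = 0.274). The replicate block called COL12A1 lower (adjusted p = 0.0122) and COL9A2 higher (adjusted p = 0.0353). COL9A2 and COL9A3, chains of cartilage type IX, lay at 0.915 to 2.62 and 0.145 to 0.426 CPM in all libraries and were otherwise not called.

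Outside the fibrillar, basement membrane, beaded and FACIT classes, 6 of the 10 genes tested were higher and 2 were lower after MmC in both comparisons, with a median log2 fold change of 1.03 and 0.99. The share called was 80.0% in each, beside 45.3% of all genes without GDF11 (22.9% higher and 22.4% lower) and 46.7% with it (23.4% and 23.3%). COL10A1, the collagen of hypertrophic cartilage, had 0.533, 0.580, 1.05 and 1.19 CPM in MmC-/GDF11- and 5.84, 20.7, 14.1 and 8.73 CPM in MmC+/GDF11-. With GDF11 it had 0.653, 0.563, 0.601 and 1.00 CPM before and 5.78, 16.2, 15.5 and 6.69 CPM after MmC. Replicate 1 was the lowest MmC+ library in both arms, opposite to its place for the fibrillar genes, and no libraries overlapped. The log2 fold change of 3.88 (SE 0.464, adjusted p = 1.26e-05) and 3.96 (SE 0.470, adjusted p = 1.13e-05) was the highest of the collagen genes.

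COL7A1, which encodes the anchoring fibril collagen of the zone between epidermis and dermis, stood at 6.17, 3.52, 3.56 and 5.55 CPM in MmC-/GDF11- and 31.8, 59.6, 45.03 and 25.3 CPM in MmC+/GDF11-. With GDF11 the levels were 4.14, 5.09, 3.49 and 4.12 CPM before and 32.8, 31.8, 52.4 and 25.9 CPM after MmC. All MmC+ libraries lay well over all MmC- libraries, and the log2 fold change was 3.10 (SE 0.294, adjusted p = 1.3e-06) and 3.09 (SE 0.294, adjusted p = 1.47e-06). The rises of COL10A1 and COL7A1 passed under all 22 alternatives tried in each comparison.

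COL8A1, a short-chain network collagen of vessel walls and Descemet's membrane, had 513, 290.5, 348 and 438 CPM in MmC-/GDF11- and 1059.7, 590.3, 636 and 717 CPM in MmC+/GDF11-, and with GDF11 456, 327, 326 and 396 CPM before and 1048, 574, 620.5 and 662 CPM after MmC. It rose by a log2 fold change of 0.92 (SE 0.228, adjusted p = 0.00393) and 0.95 (SE 0.228, adjusted p = 0.00302) with no overlap. Its partner COL8A2 fell: it lay at 7.19 to 12.9 CPM before and 5.67 to 6.47 CPM after MmC without GDF11 and at 8.04 to 9.75 and 5.50 to 6.45 CPM with it, with log2 fold changes of -0.58 (SE 0.150, adjusted p = 0.00514) and -0.57 (SE 0.151, adjusted p = 0.00554). COL13A1, a membrane collagen found at neuromuscular junctions, had 8.12, 7.94, 8.84 and 8.50 CPM in MmC-/GDF11- and 16.6, 20.4, 17.8 and 18.7 CPM in MmC+/GDF11-, and with GDF11 6.86, 10.02, 8.63 and 8.43 CPM before and 17.8, 17.3, 18.001 and 16.3 CPM after MmC. Its replicates lay close together, replicate 1 included, and it rose by log2 fold changes of 1.14 (SE 0.107, adjusted p = 8.04e-07) and 1.03 (SE 0.107, adjusted p = 2.1e-06). COL25A1, another membrane collagen, lay at 0.176 to 0.260 CPM before and 0.625 to 0.757 CPM after MmC without GDF11 (log2 fold change 1.63, adjusted p = 5.82e-06) and at 0.0939 to 0.156 and 0.693 to 0.803 CPM with it (log2 fold change 2.46, adjusted p = 2.28e-07), and rose in both comparisons.

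The multiplexins differed from each other. COL15A1 had 0.779, 0.228, 0.354 and 0.183 CPM in MmC-/GDF11- and 0.577, 2.21, 1.71 and 1.05 CPM in MmC+/GDF11-, and with GDF11 0.556, 0.174, 0.230 and 0.223 CPM before and 0.738, 1.66, 2.17 and 1.14 CPM after MmC. It rose by log2 fold changes of 1.86 (SE 0.516, adjusted p = 0.00813) and 2.28 (SE 0.530, adjusted p = 0.00249), and without GDF11 the libraries overlapped through replicate 1, which was the highest young library and the lowest MmC+ library. The call without GDF11 was lost without replicate 2, 3 or 4 of every group (1.35 to 1.74, adjusted p 0.0502 to 0.109), and that with GDF11 only under glmTreat. COL18A1, the source of the fragment endostatin, had 74.4, 26.2, 26.1 and 24.5 CPM in MmC-/GDF11- and 32.9, 17.1, 15.5 and 15.3 CPM in MmC+/GDF11-, and with GDF11 45.1, 32.9, 27.9 and 23.3 CPM before and 31.2, 13.8, 15.6 and 17.7 CPM after MmC. Replicate 1 of each MmC+ group lay among the MmC- libraries. Its log2 fold change was -0.90 (SE 0.386, adjusted p = 0.0685) and -0.72 (SE 0.385, adjusted p = 0.138), which became -1.23 (adjusted p = 0.0219) without MmC+/GDF11- replicate 1 and -1.03 (adjusted p = 0.0492) without MmC+/GDF11+ replicate 1, and the replicate block called it lower without GDF11 (adjusted p = 0.000223). Without replicate 1 of every group COL18A1 was lower, at -0.68 (adjusted p = 0.000388) without GDF11 and -0.83 (adjusted p = 7e-05) with it. Of the exonic bases of COL18A1, 18.5% overlap SLC19A1 on the opposite strand. COL28A1 lay at 0.734 to 1.06 CPM before and 0.212 to 0.357 CPM after MmC without GDF11 (log2 fold change -1.57, adjusted p = 3.34e-05) and at 0.570 to 1.00 and 0.245 to 0.301 CPM with it (log2 fold change -1.59, adjusted p = 3.06e-05), and fell in both comparisons. COL17A1, a hemidesmosome collagen of epithelia, lay between 1.29 and 2.25 CPM in all libraries and was not called in any comparison.

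**Figure D4:**
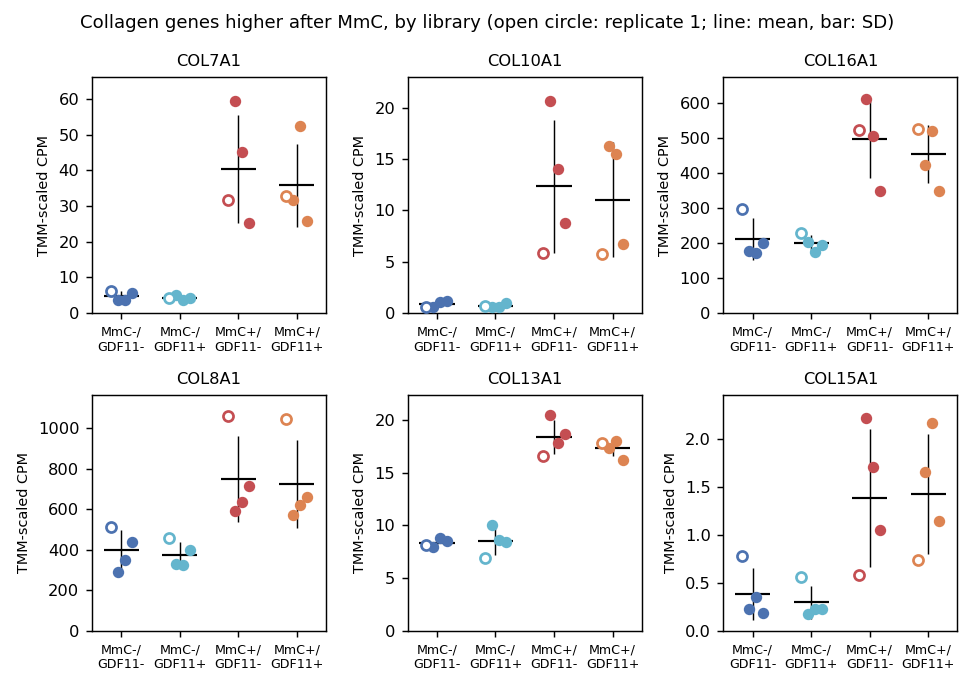
TMM-scaled CPM (linear axes) of 6 collagen genes that were higher after MmC, in the 16 libraries by group, with replicate 1 as open circles, the mean as a line and the SD of 4 libraries as a bar. For COL7A1, COL10A1, COL16A1, COL8A1 and COL13A1 every MmC+ library lies over every MmC- library. For COL15A1 replicate 1 of MmC+/GDF11- (0.577 CPM) and of MmC+/GDF11+ (0.738 CPM) lie under replicate 1 of MmC-/GDF11- (0.779 CPM).

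The other 9 collagen genes did not pass the filter on low counts and were not tested. COL9A1 and COL22A1 had 0 counts in all 8 MmC- libraries, where 3 counts, taken as the limit that a count of 0 allows, correspond to at most 0.0417 CPM per library. They had 7 and 8 counts summed over the 4 MmC+/GDF11- libraries, and 1 and 15 over the MmC+/GDF11+ libraries. COL2A1 and COL6A5 had 2 and 0 counts over the MmC-/GDF11- libraries and 27 and 24 over the MmC+/GDF11- libraries. COL19A1 had 10 and 49 counts in these groups, COL26A1 3 and 19, COL23A1 1 and 13, COL20A1 1 and 10, and COL11A2 none in either. Such counts cover counting error only and support no fold.

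Per kilobase of the canonical transcript, which allows levels to be compared between genes, the mean levels of the most abundant collagen genes stood in a different order before and after MmC. In MmC-/GDF11- the highest mean levels were 1276 CPM per kb for COL1A2, 1150.1 for COL1A1, 1057 for COL6A2, 859.8 for COL3A1 and 767 for COL6A1. In MmC+/GDF11- they were 903 for COL6A2, 778 for COL6A1, 759.7 for COL1A2, 441 for COL1A1 and 407 for COL3A1. The SD over 4 libraries was 373 for COL1A2 and 157 for COL6A2 in MmC-/GDF11-, and 375 and 128 in MmC+/GDF11-, and neighbours in each order differed by less than the larger of their 2 SDs. The orders depended in part on replicate 1. Over replicates 2 to 4 the means in MmC-/GDF11- were 1089 CPM per kb for COL1A2, 981 for COL6A2, 884 for COL1A1, 733 for COL3A1 and 686 for COL6A1, so that COL6A2 stood over COL1A1. In MmC+/GDF11- they were 843 for COL6A2, 689 for COL6A1, 573 for COL1A2, 263 for COL1A1 and 249.8 for COL3A1, the same order as over all 4 libraries, but in replicate 1 of that group COL1A2 led with 1321 CPM per kb, over 1083 for COL6A2. The next gene, COL6A3, lay well below at 174 and 76.96 CPM per kb. Summed per kilobase, the fibrillar class made up 56.6 to 64.6% of the collagen signal in MmC-/GDF11- and 36.7 to 55.3% in MmC+/GDF11-, with 57.1 to 63.3% and 34.9 to 55.8% in the groups with GDF11. The beaded class made up 30.4 to 37.8% and 36.4 to 51.97% without GDF11. The fibrillar ranges did not overlap, and the highest value of each MmC+ group was replicate 1. The FACIT share was 1.44 to 1.90% and 2.66 to 4.46%, and the short-chain network share 1.11 to 1.64% and 3.23 to 4.27%. These shares are a description and were not tested.

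Genes that modify, process, bind or degrade collagen were counted in lists drawn up from their known roles, which were written with earlier results of these data known. Of 21 genes of collagen modification and folding, 8 were higher and 3 lower after MmC without GDF11, and 10 and 3 with it. Of 13 genes of procollagen processing and crosslinking, 3 were higher and 6 lower without GDF11, and 3 and 5 with it. With the replicate block 5 of these were higher and 6 lower without GDF11, beside 28.8% and 29.1% of all genes. Of 7 collagen receptors tested, 5 were higher and none lower in both comparisons, and of 6 collagenases and gelatinases 5 were higher and none lower in both. Among the latter, MMP8 and MMP13 passed the filter on low counts only through the MmC+ libraries, so higher was the only call open to them. Their values enter the median of that list. The median log2 fold changes of the lists without GDF11 were 0.15, -0.42, 0.37 and 2.54 in that order, against -0.01 over all genes tested. The shares called without GDF11 were 52.4, 69.2, 71.4 and 83.3% in the same order. Of all genes 45.3% were called (22.9% higher and 22.4% lower), so the share of the first list was near the background. With GDF11 46.7% of all genes were called, 23.4% higher and 23.3% lower.

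SERPINH1 (HSP47), the chaperone of procollagen, had 852, 673, 586 and 506 CPM in MmC-/GDF11- and 374, 227, 208 and 231 CPM in MmC+/GDF11-, with no overlap, and fell with a log2 fold change of -1.33 (SE 0.222, adjusted p = 0.000178). PLOD2, the hydroxylase of telopeptide lysines, had 365, 398, 516 and 536 CPM and 1506, 1594, 1563 and 1137 CPM in these groups and rose by a log2 fold change of 1.68 (SE 0.159, adjusted p = 9.06e-07). P4HA3, a chain of prolyl 4-hydroxylase, rose, with 0.170 to 0.351 CPM before and 1.29 to 6.07 CPM after MmC (log2 fold change 3.62, adjusted p = 0.000287), whereas P4HA1, a chain of the same enzyme, stood at 239 to 308 and 242 to 431 CPM (log2 fold change 0.13, adjusted p = 0.611). CREB3L1, a transcription factor of collagen genes in bone, fell with a log2 fold change of -0.57 (SE 0.203, adjusted p = 0.032), a call lost without MmC-/GDF11- replicate 1 or 2 or MmC+/GDF11- replicate 2, 3 or 4 (-0.46 to -0.55, adjusted p 0.069 to 0.102). With GDF11 its value was -0.54 (SE 0.203, adjusted p = 0.0401), and that call was lost without MmC-/GDF11+ replicate 1, 2 or 3 or MmC+/GDF11+ replicate 2, 3 or 4 (-0.41 to -0.56, adjusted p 0.0582 to 0.133).

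Among the processing genes, PCOLCE, the enhancer of procollagen C-proteinase, had 1242, 999, 870.4 and 796 CPM in MmC-/GDF11- and 451, 373, 345 and 381 CPM in MmC+/GDF11- with no overlap, and fell with a log2 fold change of -1.33 (SE 0.147, adjusted p = 3.88e-06). ADAMTS14, a procollagen N-proteinase, fell with a log2 fold change of -0.84 (SE 0.153, adjusted p = 0.000364). The crosslinking enzyme LOXL4 rose, with 84.5 to 107 CPM before and 198 to 414 CPM after MmC (log2 fold change 1.68, adjusted p = 1.32e-05), and the proteinase TLL2 rose by a log2 fold change of 1.39 (SE 0.305, adjusted p = 0.00158). LOX had 2385, 1089.7, 1432 and 1415 CPM in MmC-/GDF11- and 5109, 1719, 1759.6 and 2085 CPM in MmC+/GDF11-, with the highest value in replicate 1 of both, and its log2 fold change of 0.76 (SE 0.423, adjusted p = 0.158) was not called, but was with the replicate block (adjusted p = 0.000593). Without replicate 1 of every group LOX was higher, at 0.50 (adjusted p = 0.00913) without GDF11 and 0.61 (adjusted p = 0.00261) with it. The integrin subunits ITGA2 and ITGA1, receptors of collagen, rose by log2 fold changes of 1.65 (SE 0.276, adjusted p = 0.000208) and 0.91 (SE 0.141, adjusted p = 9.44e-05).

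The interstitial collagenase MMP1 had 24.3, 29.3, 23.8 and 24.9 CPM in MmC-/GDF11- and 78.9, 612, 523 and 258 CPM in MmC+/GDF11-. Replicate 1, with the highest fibrillar collagen levels of the MmC+ libraries, had the lowest MMP1 of its group, in MmC+/GDF11+ as well (79.9, 492, 524 and 207 CPM). MMP1 rose by a log2 fold change of 3.85 (SE 0.599, adjusted p = 0.000123) and 3.66 (SE 0.594, adjusted p = 0.000171). MMP8 had 1 count in all over the MmC-/GDF11- libraries and 281 over the MmC+/GDF11- libraries, and MMP13 had 0 and 68. Both were called higher (adjusted p = 9.33e-05 and 0.000372), with no fold given against counts so low. No MmC- library held more than 2 counts of either gene, so both entered the test only through the MmC+ libraries.

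GDF11 left the collagen genes without a call in either cell state. In young MSCs and in senescent MSCs 0 of the 35 genes passed, as did 0% of all 19103 genes (edgeR), and limma-voom and DESeq2 called 0 collagen genes too. At an unadjusted p under 0.05 there was 1 collagen gene in young MSCs and 0 in senescent MSCs, against 1.18% and 0.503% of all genes. The log2 fold changes of the collagen genes ranged from -0.72 to 0.12 in young MSCs, with 28 of 35 negative and a median of -0.09, and from -0.57 to 0.13 in senescent MSCs, with 27 negative and a median of -0.05, against -0.0043 and -0.0035 over all genes. Without replicate 1 of every group the balance in young MSCs turned, with 22 positive and 12 negative (1 rounded to 0), a median of 0.04 and a range of -0.61 to 0.40, whereas in senescent MSCs 27 were negative with a median of -0.07 and a range of -0.54 to 0.18, and 0 genes were called in either. The 95% confidence interval lay within -1 to 1 for 26 and 28 of the 35 genes, so that a difference of that size was outside the interval for most of them. For the others, COL1A1 among them, it was not: the interval of COL1A1 was -1.21 to 1.05 in young and -1.12 to 1.14 in senescent MSCs.

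The member with the smallest p in young MSCs was COL25A1, with 0.260, 0.176, 0.236 and 0.212 CPM in MmC-/GDF11- and 0.125, 0.0939, 0.153 and 0.156 CPM in MmC-/GDF11+. The groups did not overlap, which held for 1 of the 35 collagen genes and for 0.89% of all genes, and the log2 fold change was -0.72 (SE 0.213, adjusted p = 1). COL4A4 (2.61 to 6.74 and 2.39 to 3.75 CPM) and COL6A2 (3247 to 4436 and 3196 to 3364 CPM) followed, with log2 fold changes of -0.36 (adjusted p = 1) and -0.15 (adjusted p = 1), and COL4A4 stood at 0.06 without MmC-/GDF11- replicate 1. In senescent MSCs the smallest p belonged to COL9A3 (0.245 to 0.426 CPM without and 0.163 to 0.352 CPM with GDF11), COL24A1 (0.198 to 0.301 and 0.0683 to 0.256 CPM) and COL17A1 (1.67 to 2.25 and 1.34 to 1.81 CPM), with log2 fold changes of -0.57 (adjusted p = 1), -0.45 (adjusted p = 1) and -0.23 (adjusted p = 1). COL1A1, COL1A2 and COL3A1 had log2 fold changes of -0.08, -0.09 and -0.14 in young and 0.01, -0.03 and -0.02 in senescent MSCs, all with an adjusted p of 1. The libraries of the senescent comparison were taken as paired by replicate number, and the block brought no call.

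**Figure D5:**
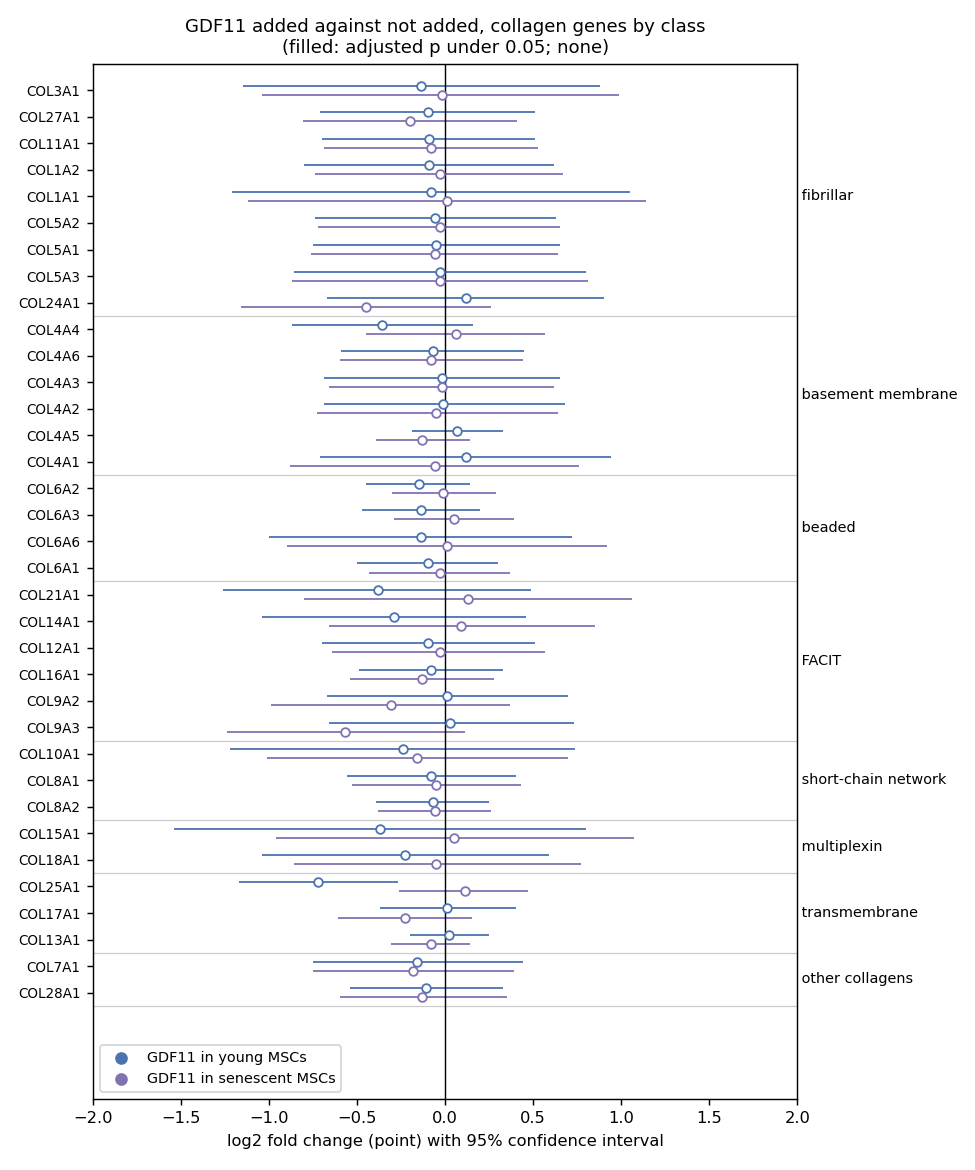
Log2 fold change of each of the 35 collagen genes tested after GDF11, by class (rows), in young (blue) and senescent (purple) MSCs, with 95% confidence intervals. All points are open, since none passed an adjusted p of 0.05. The points lie between -0.72 (COL25A1, young) and 0.13 (COL21A1, senescent).

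The interaction of MmC and GDF11, which asks whether the effect of GDF11 differed between young and senescent MSCs, was called for 0 of 35 collagen genes and 0% of all genes, with 1 collagen gene and 0.9% of all genes at an unadjusted p under 0.05. It was called for 0 collagen genes by limma-voom and DESeq2. The 1 gene was COL25A1, with an interaction of 0.83 on the log2 scale (SE 0.274, unadjusted p = 0.00804, adjusted p = 1). The effect of MmC on COL1A1, COL14A1 and COL4A5, called without GDF11 only, was therefore not shown to differ between the arms. Their interaction values were 0.09, 0.38 and -0.20 on the log2 scale, with an adjusted p of 1 each.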

How the data were processed

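RNA of 16 libraries of ASC52telo MSCs was sequenced from poly(A) RNA with a stranded kit, 4 biological replicates for each of 4 groups, which were taken from the sample labels. The authors aligned reads to hg38 with HISAT2 2.2.1 and counted them on GENCODE V38 genes with featureCounts 2.0.1. The deposited values are raw counts per gene without normalization. The strand setting, the counting of pairs and the treatment of multiply aligned reads are not given in the sources used here.

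Here the counts were fitted in R 4.3.3 with edgeR 4.0.16: filterByExpr (minimum count 10, minimum total 15), TMM scaling, a robust quasi-likelihood fit with 1 mean per group over all 16 libraries, and Benjamini-Hochberg adjustment over 19103 genes at 0.05. Chain ratios were tested by a two-sided exact permutation test. The main fit was tested on simulated counts for MmC without GDF11. The simulated counts held no offset of replicate 1. Genes were matched by identifier to GENCODE v44 (186 had no match), and promoter windows came from RefSeq. The paper states no differential test. The collagen genes and all lists were chosen with earlier results of these data known. Named were collagen genes of at least 20 CPM in a group, and the 3 smallest p per GDF11 comparison. Collagen genes called after MmC with an absolute log2 fold change of at least 1 and at least 1 CPM were named too. Per pathway list the 2 largest called rises and the 2 largest called falls were named, with PLOD2, LOX, SERPINH1, P4HA1 and MMP1. The receptor and collagenase lists had no called falls, and their called genes DDR2, ITGB1, MRC2, MMP2 and MMP14, not described above, rose too. COL24A1, COL27A1, COL8A2, COL28A1, COL4A4, COL4A6, COL9A2 and the untested genes were added for completeness of their class.

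The labels do not say that replicate numbers pair libraries across groups. The lowest correlation of deviations between same-numbered libraries exceeded 0.1 in MmC without GDF11 (0.113) and in the senescent GDF11 comparison (0.448), whose libraries were taken as paired. The lowest was 0.0293 in MmC with GDF11 and 0.0982 in the young GDF11 comparison. Libraries of different numbers were not compared, so these correlations cannot show that the cultures were paired. Alternatives were RLE and upper-quartile scaling, TMM without collagen genes, 2 other filters, only the compared libraries, the replicate block, limma-voom (limma 3.58.1), DESeq2 1.42.0, glmTreat, leaving out each library or replicate number, all counts as the denominator of the share, and an exact sign-flip test of paired ratios.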

Additional observations from a re-analysis of the deposited data

Results flagged for a closer look

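In 28 of 144 groups of 4 values, the 35 collagen genes tested and the collagen share in 4 groups, 1 library lay so far from the other 3 that its gap to the nearest, divided by the whole range, exceeded Dixon's 95% critical value. Chance would mark about 1 in 20 groups, and genes of 1 library are not independent. Of the 28 values 25 were those of replicate 1.

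In MmC-/GDF11- replicate 1 was high, at 11527 CPM for COL1A1 (others 4891 to 5499.9 CPM), 9307 CPM for COL1A2 (others 5461 to 5576 CPM), 6817 CPM for COL3A1 (others 3916 to 4167 CPM), 1176 CPM for COL5A1 (others 588 to 629 CPM), 179 CPM for COL5A3 (others 94.3 to 99.97 CPM), 6.74 CPM for COL4A4 (others 2.61 to 3.04 CPM), 4237 CPM for COL6A1 (others 2822 to 2989 CPM), 74.4 CPM for COL18A1 (others 24.5 to 26.2 CPM) and 4.39% for the collagen share of protein-coding counts (others 2.50 to 2.76%).

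In MmC-/GDF11+ replicate 1 stood at 402 CPM for COL4A1 (others 170.1 to 209.6 CPM), 576 CPM for COL4A2 (others 302 to 327 CPM), 1.92 CPM for COL4A6 (others 3.92 to 4.14 CPM) and 0.556 CPM for COL15A1 (others 0.174 to 0.230 CPM), COL4A6 being low and the others high.

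In MmC+/GDF11- replicate 1 was high, at 5767 CPM for COL1A1 (others 1451 to 1688 CPM), 6701 CPM for COL1A2 (others 2733 to 3059.7 CPM), 4831 CPM for COL3A1 (others 1233 to 1575 CPM), 761 CPM for COL5A1 (others 329 to 387 CPM), 18.7 CPM for COL11A1 (others 9.42 to 10.9 CPM), 32.9 CPM for COL18A1 (others 15.3 to 17.1 CPM) and 2.88% for the collagen share of protein-coding counts (others 1.49 to 1.65%). Replicate 4 of this group was high at 2.31 CPM for COL21A1 (others 0.826 to 0.992 CPM).

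In MmC+/GDF11+ replicate 1 was high, at 6032 CPM for COL1A1 (others 1318 to 1673 CPM), 4776 CPM for COL3A1 (others 1079 to 1635 CPM), 737 CPM for COL5A1 (others 306 to 358 CPM), 325 CPM for COL4A1 (others 122 to 146 CPM) and 489 CPM for COL4A2 (others 205 to 252 CPM). Replicate 4 of this group was high at 0.352 CPM for COL9A3 (others 0.163 to 0.191 CPM) and 2.75 CPM for COL21A1 (others 0.889 to 0.925 CPM). The cause of these offsets was not tested.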

How the results depend on the processing

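Counts of called collagen genes moved by over 1.5 times in 12 cases. For MmC without GDF11, 14 genes were higher with no filter on low counts (7 lower), 16 were lower with the replicate block, and 3 were higher and 3 lower when glmTreat tested against a log2 fold change of 1. For MmC with GDF11 the block gave 9 higher and 16 lower, beside 29.3% and 29.7% of all genes, and glmTreat 3 and 3. In that comparison 3 of the 4 same-numbered pairs correlated over 0.1 (0.311, 0.160 and 0.266) and replicate 3 did not (0.0293), so the numbers were not taken to pair its libraries. Leave-outs gave 6 to 12 higher and 5 to 15 lower without GDF11, and 7 to 9 higher and 5 to 15 lower with it. The ends for lower genes were 5 without replicate 3 of every group and 15 without replicate 1 of every group in both comparisons, beside 13.6% and 13.2% of all genes lower in the first of these, and without MmC+/GDF11+ replicate 1 alone there were 13 with GDF11. glmTreat asks for a larger change, and leaving out a replicate number leaves 3 libraries a group. The cause of the other shifts was not tested. Counts for GDF11 and the interaction were 0 under all alternatives run.

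Values that changed sign all belonged to genes not called. Over the leave-outs COL4A4 ranged from -0.15 to 0.44, COL6A1 from -0.14 to 0.19, COL17A1 from -0.04 to 0.19 and P4HA1 from -0.06 to 0.28 on the log2 scale without GDF11. With GDF11 COL27A1 ranged from -0.14 to 0.34, COL6A1 from -0.07 to 0.20, COL6A2 from -0.19 to 0.01, COL9A2 from -0.29 to 0.23, COL9A3 from -0.47 to 0.03 and P4HA1 from -0.28 to 0.18. COL9A2 was -0.05 and P4HA1 -0.02 with limma-voom, and P4HA1 was -0.04 with the replicate block. For GDF11 in young MSCs COL4A4 ranged from -0.50 to 0.06. Other sign changes by leave-outs were -0.13 without MmC-/GDF11- replicate 2 and -0.08 without replicate 3 of every group for COL4A4 without GDF11, and for P4HA1 with GDF11 -0.22 without MmC+/GDF11+ replicate 1 and -0.03 without replicate 4 of every group. COL27A1 with GDF11 was -4.5e-05 without replicate 1 of every group. Without MmC+/GDF11- replicate 2 P4HA1 was 0.25, and without MmC+/GDF11+ replicate 2 it was 0.12 with GDF11.

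With GDF11 the block called 9 collagen genes that were not called without it: COL1A1, COL1A2, COL3A1, COL5A1, COL4A1, COL4A2, COL12A1 and COL18A1 lower and COL4A6 higher. Beyond these and the changes named in the text, the block changed no call of a collagen gene. Of 28 chain ratio differences 14 changed sign when 1 library was left out, 13 of them for GDF11. On the log2 scale COL4A1/COL4A2 ranged from -0.05 to 0.05 for MmC without GDF11. For GDF11 in young MSCs the ranges were -0.06 to 0.14 for COL1A1/COL1A2, -0.09 to 0.15 for COL5A1/COL5A2, -0.07 to 0.14 for COL6A1/COL6A3, -0.09 to 0.07 for COL6A2/COL6A3, -0.01 to 0.18 for COL1A1/COL3A1 and -0.04 to 0.04 for COL5A1/COL1A1. For GDF11 in senescent MSCs they were -0.15 to 0.20 for COL1A1/COL1A2, -0.07 to 0.05 for COL4A1/COL4A2, -0.13 to 0.09 for COL5A1/COL5A2, -0.31 to 0.14 for COL6A1/COL6A3, -0.23 to 0.10 for COL6A2/COL6A3, -0.07 to 0.07 for COL1A1/COL3A1 and -0.23 to 0.18 for COL5A1/COL1A1. The 13 other ratio differences after MmC kept their direction in all leave-outs. The exact sign-flip test on same-numbered libraries (replicate block) leaves the mean difference as it is by construction, -0.75 for COL1A1/COL1A2 without GDF11. It is therefore no check of that value. The collagen shares moved by under 1 SD with all counts as the denominator.

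The main limits are 4 libraries a group, the offset of replicate 1, genes under 1 CPM and the unstated strand setting.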
